A study of Mus musculus with 12 samples.

Results

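The Zfp genes are the mouse genes whose symbol begins with Zfp and a digit, most of which encode zinc finger proteins. The GENCODE M21 annotation of the GRCm38 genome holds 394 protein-coding genes of this name, and 112 of them (28.4%) had at least 1 m6A peak in a peak list of young or aged mouse hearts. Among all protein-coding genes this share was 29.5%, 6508 of 22028. The 112 genes held 519 of the 41694 peaks of the 6 lists, and these 519 peaks were joined into 225 of 15699 regions, where a region is a set of peaks from any of the hearts that share at least 1 base of exon on the same strand. Members were chosen by symbol and by the presence of a peak in any heart, and neither the place of a peak nor the age label was used. Through their peaks, however, 35 of the 112 genes became members by the aged hearts alone and 11 by the young hearts alone.

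Hearts came from male C57BL/6 mice, young at 6 to 7 weeks or aged at 26 to 27 months. RNA was fragmented to 100 to 200 nt and enriched with an antibody against N6-methyladenosine (m6A, a methylated adenosine in RNA), and each immunoprecipitate was sequenced beside an input library of the same RNA (MeRIP-seq). The 12 libraries, 3 immunoprecipitates and 3 inputs per age, gave 6 peak lists, 1 per immunoprecipitate. The sample labels name 1 mouse per library, whereas the methods also describe samples pooled from 3 hearts, so the number of animals behind a list is not settled, and each list is called a heart here. If the hearts of an age are not separate animals, p-values measure only the spread between these samples. Over the 14 tests given below, no p-value was under 0.05 after Benjamini-Hochberg adjustment, where the lowest was 0.0625. Libraries were made with a Smart-seq method and their reads were aligned with a setting for stranded libraries, while whether the peak calling used strand is not given in the sources used here. The lists give peaks rather than levels. Of the marker genes of cells that cardiac tissue holds, 6 of 7 of heart muscle, all 4 of endothelium, all 5 of fibroblasts and 2 of 3 of smooth muscle had a peak, against 1 of 4 of macrophages and blood. A gene without a peak may be unmethylated, not expressed or too shallowly sequenced, and the lists cannot tell these apart.

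A classical zinc finger is a short fold in which 2 cysteines and 2 histidines (C2H2) hold a zinc ion, and arrays of such fingers read DNA, 1 finger after another. In many Zfp genes a single long last exon encodes the whole array, while earlier short exons encode a KRAB domain, which recruits the corepressor Trim28 to silence repeats and imprinted genes. Some Zfp proteins bind RNA instead, such as the CCCH proteins of the Zfp36 group, which bring AU-rich messengers to decay. N6-methyladenosine is written by a complex around METTL3 and METTL14, mostly at an adenosine within GGAC or the wider DRACH motif, and it is known to be dense in long internal exons and around stop codons.

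Regions shared by all 6 hearts show where in these transcripts the peaks lay. There were 21 such regions in 17 genes, and the stretch common to all 6 peaks was 0 to 421 nt long with a median of 151 nt. It held GGAC in 11 of the 21. The following windows of the GRCm38 genome, printed 5′ to 3′ on the strand of the gene, show in capitals a GGAC that the peaks of all 6 hearts covered, with 12 bases of the exon on each side. They are shown because they stand for the places described below, from coding sequence outside a finger to a finger itself.
Zfp106, chr2:120533897-120533924, minus strand, coding: agaagatgcgcaGGACaacaaccttgtt
Zfp638, chr6:83943103-83943130, plus strand, coding: ctagcccagagaGGACatcaagaaaatc
Zfp445, chr9:122853599-122853626, minus strand, coding: aaatatggggaaGGACtcagaggcacag
Zfp809, chr9:22238670-22238697, plus strand, coding: ctatgaatgtaaGGACtgcgagaaagtt
Zfp292, chr4:34806168-34806195, minus strand, coding: agtctaaacatcGGACaacaaaacccaa
Zfp703, chr8:26979754-26979781, plus strand, coding: tcagccatctacGGACtcacacagccct
Zfp827, chr8:79190475-79190502, plus strand, 3′UTR: gggactgtctgaGGACagccgcgttctg
The Zfp445, Zfp292 and Zfp703 windows lie in a long last coding exon, those of Zfp106 and Zfp809 in a long inner coding exon, and that of Zfp638 in a shorter coding exon. The Zfp809 window is the one of these that falls inside a C2H2 finger. A GGAC is a match of letters and was not shown to be the methylated base.

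The transcripts of the 112 genes differed in layout from those of other genes with a peak. Each gene was represented by its coding transcript with the longest coding sequence, and an exon was called long when its coding part was at least 400 nt. A long last coding exon was found in 84 of the 112 genes (75.0%) and in 1049 of 6364 other protein-coding genes with a peak (16.5%). The coding part of the last coding exon had a median of 1229 nt in the 112 genes and 149 nt in the other genes. Zfp genes without a peak had this layout more often still, with 254 of 282 (90.1%), whereas a long inner coding exon was found in 37 of the 112 and in 20 of the 282. The median number of C2H2 fingers was 9 in genes with a peak, with a range from 0 to 36, and 11 in genes without.

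The KRAB-type genes of the family carried fewer of the peaks. A loose search for the core of the KRAB A box in the translated coding sequence found it in 29 of the 112 genes (25.9%) and in 125 of the 282 genes without a peak (44.3%). Put the other way, 18.8% of the 154 genes with the pattern had a peak and 34.6% of the 240 without it. An inner coding exon of 127 nt, the most frequent size in the family and that of the exon which holds this box in many of these genes, was found in 36 of the 112 and in 177 of the 282. Of these, 27 and 115 also had the pattern, and the rest were counted as genes without it. Zfp950, with a peak in all 6 hearts, is one of that rest, so the search may miss KRAB genes. The 29 KRAB-type genes had a peak in a median of 1 heart, with 15 of them seen in 1 heart and 2, Zfp445 and Zfp809, in all 6. The other 83 genes had a peak in a median of 3 hearts, with 17 of them in all 6. Per heart, KRAB-type genes with a peak numbered 10, 11 and 5 in the young and 8, 14 and 10 in the aged hearts. This split was made after the data had been seen and was given no test. Near-identical copies bear on it, since a stretch of at least 100 nt that matched a transcript of another gene at 95% or more was found in 24 of the 112 genes (21.4%) and in 118 of the 282 (41.8%), and how reads from such copies were assigned is not given in the sources used here.

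Coding sequence held most of the peaks, in Zfp genes and in other coding genes alike. The middle of the peak fell on the chosen transcript for 464 of the 519, and 55 (10.6%) lay elsewhere, against 14.2% of the peaks of other coding genes. Of the 464, a long last coding exon held 156 (33.6%) in 48 genes, a long inner coding exon held 132 (28.4%) in 25 genes, and a short inner coding exon held 71 (15.3%). The 3′UTR held 83 (17.9%) in 32 genes and the 5′UTR 19 (4.09%). As a mean over hearts, coding sequence held 78.9% ± 6.36 of the placed Zfp peaks and 76.1% ± 2.85 of those of other coding genes (SD, n = 6 hearts). The kind of coding exon differed more. Long inner coding exons held 29.6% against 17.3%, and short coding exons 16.1% against 49.7%. The long inner exons were led by few genes, with 20 peaks in Zfp106, 19 in Zfp638 and 15 in Zfp644. Peaks of the 3′UTR lay a median of 872 nt after the stop codon, and 26 of the 83 lay within 400 nt of it.

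Within each heart, the share of placed peaks in a long last coding exon was 40.0%, 30.5% and 27.5% in the young and 31.9%, 34.4% and 35.3% in the aged hearts. In the peaks of all other protein-coding genes it was 8.87%, 9.93% and 10.2% in the young and 8.30%, 7.48% and 9.68% in the aged hearts. The Zfp share was higher in 6 of 6 hearts, with means of 33.3% ± 4.33 and 9.08% ± 1.06 (SD, n = 6 hearts) and a difference of 24.2 percentage points (two-sided exact sign-flip permutation test, p = 0.03125, the smallest that 6 hearts allow, and 0.0625 after Benjamini-Hochberg adjustment over 14 tests). Zfp genes also have such an exon more often, and the part of this layout in the difference was not tested. Against the peaks of other genes that also have a long last coding exon, of which 45.9% ± 3.40 lay in that exon, the share of all Zfp peaks was lower in 6 of 6 hearts, with a difference of -12.7 points (exact p = 0.03125, adjusted 0.0625). Only the other genes were limited here. Of the 112 Zfp genes, 84 have such an exon, and peaks of the rest cannot lie in one. The sides are thus unlike, and this difference does not compare genes of the same layout. When both sides were limited to genes with a long last coding exon, the direction turned: the Zfp share was 60.9%, 46.3% and 52.4% in the young and 50%, 50.8% and 55.6% in the aged hearts, higher than that of the other genes by 6.73 points in 6 of 6 hearts (exact p = 0.03125, outside the 14 tests and chosen after the data had been seen). The smallest of the 6 differences was 0.504 points, in young heart 2.

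**Figure D1:**
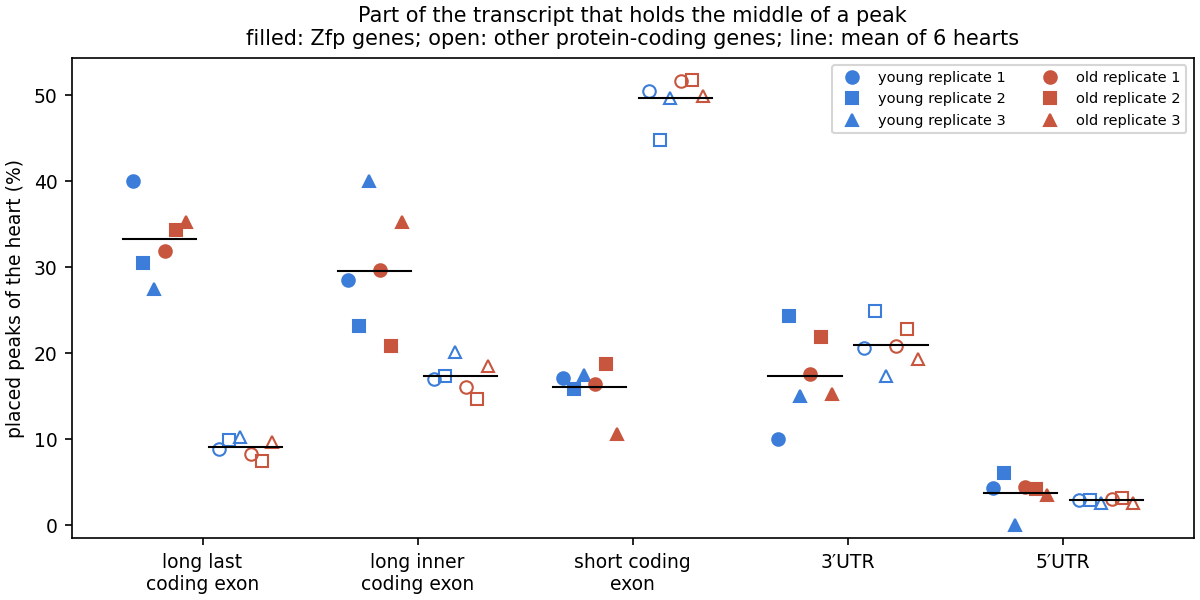
Share of the placed peaks of each heart (y axis, %) by the part of the transcript that holds the middle of the peak, for Zfp genes (filled) and other protein-coding genes (open), with 1 symbol per heart and a line at the mean of the 6 hearts. Filled symbols for the long last coding exon lie between 27.5% and 40.0%, above all open ones there, and short coding exons show the opposite order.

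Along the coding part of the long last exon, cut into 3 equal parts, 62 of the 156 peaks lay in the first part (39.7%), 35 in the middle part (22.4%) and 59 in the last part (37.8%). For other genes these shares were 29.3%, 36.1% and 34.6%. The Zfp peaks lay a median of 486 nt after the last exon junction. These shares are given as a description, since several hearts contributed peaks at the same place.

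The 3′UTR share of the Zfp peaks was 10.0%, 24.4% and 15.0% in the young and 17.6%, 21.9% and 15.3% in the aged hearts. For other coding genes it was 20.6%, 25.0% and 17.4% in the young and 20.9%, 22.9% and 19.3% in the aged hearts. The Zfp share was lower in 6 of 6 hearts, with a difference of -3.65 points (17.4% ± 5.17 against 21% ± 2.67, SD, n = 6 hearts, exact sign-flip permutation test, p = 0.03125, adjusted 0.0625). It was -0.586 points in the heart where it was smallest. Placed by any overlap of a peak with the 3′UTR, the difference was -2.46 points (exact p = 0.25), and on the transcript with the longest exons it was -0.636 points (exact p = 0.6875). Against other genes with a long last coding exon the Zfp share was lower in 5 of 6 hearts, with a difference of -3.08 points (exact p = 0.0625, adjusted 0.109).

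More of the Zfp peaks lay within 1 exon. A single exon block made up 76.6%, 80.0% and 78.6% of the peaks in the young and 75.2%, 72.3% and 80.4% in the aged hearts. The means were 77.2% ± 3.10 for Zfp genes and 53.8% ± 2.89 for other coding genes, higher by 23.4 points in 6 of 6 hearts (exact sign-flip permutation test, p = 0.03125, adjusted 0.0625). The peaks were of similar length, with a mean of 228 nt ± 14.2 against 233 nt ± 8.47 (SD, n = 6 hearts).

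Zfp peaks ranked lower in their lists. Ranked by deposited p-value within a heart, from 0 for the best peak to 100 for the weakest, the median Zfp peak stood at 62.1, 65.8 and 59.8 in the young and 54.6, 56.8 and 58.1 in the aged hearts, against 49.3 to 49.8 for other coding genes. The mean difference was 9.92 in 6 of 6 hearts (exact sign-flip permutation test, p = 0.03125, adjusted 0.0625). This comparison was added after the data had been seen, and without it the lowest adjusted p-value of the other 13 tests was 0.0677. The rank depends on the level and the depth of a gene as well as on its methylation, and the part of each was not tested.

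The stretch from the first to the last finger held a smaller share of the coding peaks than of the coding length. In the 101 genes with a peak and at least 2 C2H2 fingers, 332 peaks lay in coding sequence, of which 138 had their middle between the start of the first and the end of the last finger, 143 before it and 51 after it. Per heart, 46.4%, 41.8% and 38.7% of the coding peaks of the young and 36.5%, 41.5% and 43.5% of those of the aged hearts lay in this stretch. The stretch made up 53.7% to 57.1% of the coding length of the same genes, weighted by their peaks. It includes sequence between distant fingers and is not an array of fingers in each gene. In Zfp106, with 3 fingers, it ran from 18 to 5529 nt of a coding sequence of 5667 nt. In Zfp638, with 2 fingers, it ran from 1275 to 5802 nt of 5883 nt. The share of the peaks was lower than that of the length in 6 of 6 hearts, with a difference of -13.9 points (41.4% ± 3.50 against 55.3% ± 1.24, exact sign-flip permutation test, p = 0.03125, adjusted 0.0625). Counting only the bases of the finger motifs themselves, 15.1% of the peaks against 22.6% of the length lay in a finger (difference of -7.45 points, exact p = 0.03125, chosen after the data had been seen).

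**Figure D2:**
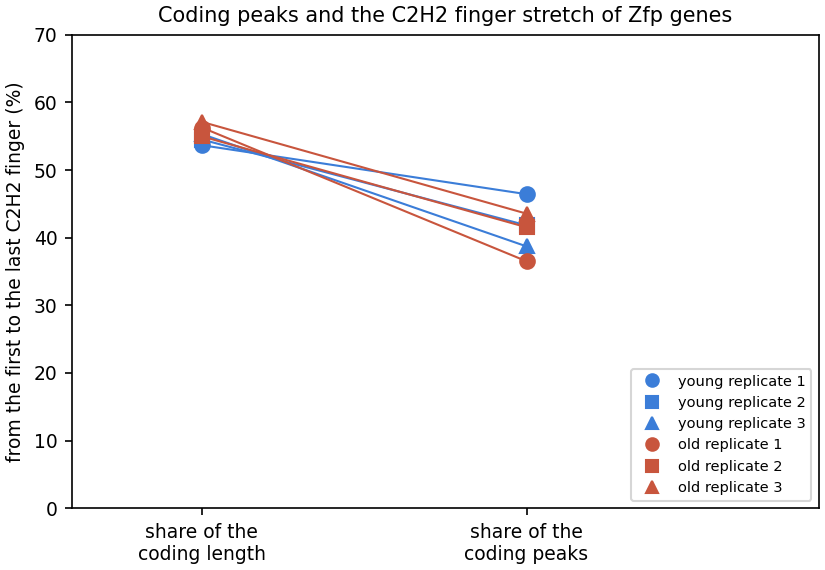
Share of the coding length (left) and of the coding peaks (right) that lies between the first and the last C2H2 finger of Zfp genes with at least 2 fingers (y axis, %), with 1 line per heart. All 6 lines fall, from 53.7% to 57.1% of the length to 36.5% to 46.4% of the peaks.

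The stretch from the first to the last finger, sequence between distant fingers included, also held fewer GGAC per kb. The letters were searched on the transcribed strand, and the finger stretch held 416 in 145 kb, 2.87 per kb, against 459 in 98.2 kb of coding sequence outside it, 4.67 per kb. For DRACH, which holds GGAC as one of its forms when a fitting base follows, the densities were 20.4 and 23.8 per kb. The TGEKP linker between neighbouring fingers, a signature of the family, made up 2.94% of the stretch. Its codons held 155 DRACH, 36.4 per kb. Wholly within codons for these residues, DRACH can be spelled only as AAACC, which needs lysine coded as AAA. This density thus depends on the lysine codon, and it was not tested against the other densities. No choice of codons for these residues spells GGAC, so the 0 GGAC found in them was fixed in advance. Near-identical sequence made up 2.65% of the stretch and 6.46% of the coding sequence outside it.

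Within the peaks, GGAC occurred 4.10, 4.85 and 4.43 times per kb in the young and 4.38, 3.97 and 4.68 times per kb in the aged hearts. The rest of the same transcripts held 3.21 per kb, 1510 in 470 kb. The density in peaks was higher in 6 of 6 hearts, by 1.19 per kb (mean 4.40 ± 0.333, exact sign-flip permutation test, p = 0.03125, adjusted 0.0625). The value for the rest was the same constant in each heart, so the test measures the spread between hearts and not that between genes. Against the peaks of other coding genes, with 4.29 ± 0.183 per kb, the difference of 0.117 per kb was within the spread between hearts (higher in 3 of 6, exact p = 0.4375). At least 1 GGAC was present in 54.8% ± 3.42 of the Zfp peaks and 57.2% ± 1.46 of the peaks of other coding genes.

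The aged hearts had more Zfp genes with a peak. Their number was 52, 55 and 30 in the young and 65, 72 and 60 in the aged hearts, and the groups did not overlap, nor did those of all coding genes with a peak. The means were 45.7 ± 13.7 and 65.7 ± 6.03 (SD, n = 3 hearts each), a difference of 20 genes (two-sided exact permutation test, p = 0.1, the smallest that 3 against 3 hearts allow). Zfp peaks numbered 77, 90 and 42 in the young and 101, 112 and 97 in the aged hearts (means 69.7 ± 24.8 and 103 ± 7.77, exact permutation p = 0.1). Without young heart 3 the differences were 12.2 genes and 19.8 peaks. The lists of the aged hearts were longer as a whole, with 9062, 9367 and 7284 peaks against 6505, 5362 and 4114. All coding genes with a peak numbered 2549 to 3662 in the young and 3980 to 4752 in the aged hearts. Zfp genes were 1.43% ± 0.257 of these genes in the young and 1.49% ± 0.0383 in the aged hearts. As a share of the peaks of coding genes, Zfp peaks made up 1.23%, 1.77% and 1.06% in the young and 1.16%, 1.25% and 1.39% in the aged hearts. The means of 1.36% ± 0.371 and 1.27% ± 0.114 differed by less than the spread between hearts (exact permutation p = 0.9). With the 4114 best peaks taken from each heart, the direction turned, and the mean difference, aged minus young, was -2.33 Zfp genes (exact permutation p = 0.5) and -6.67 Zfp peaks (exact permutation p = 0.6). Among the marker genes, 1 of 7 of heart muscle, 1 of 5 of fibroblasts, 2 of 4 of endothelium, 2 of 3 of smooth muscle and 0 of 4 of macrophages and blood had more peaks in each aged heart than in any young heart. Over all coding genes with a peak, 447 of 6508 (6.87%) did so, while the marker counts include genes without a peak. The part of the marker genes in the result was not tested.

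**Figure D3:**
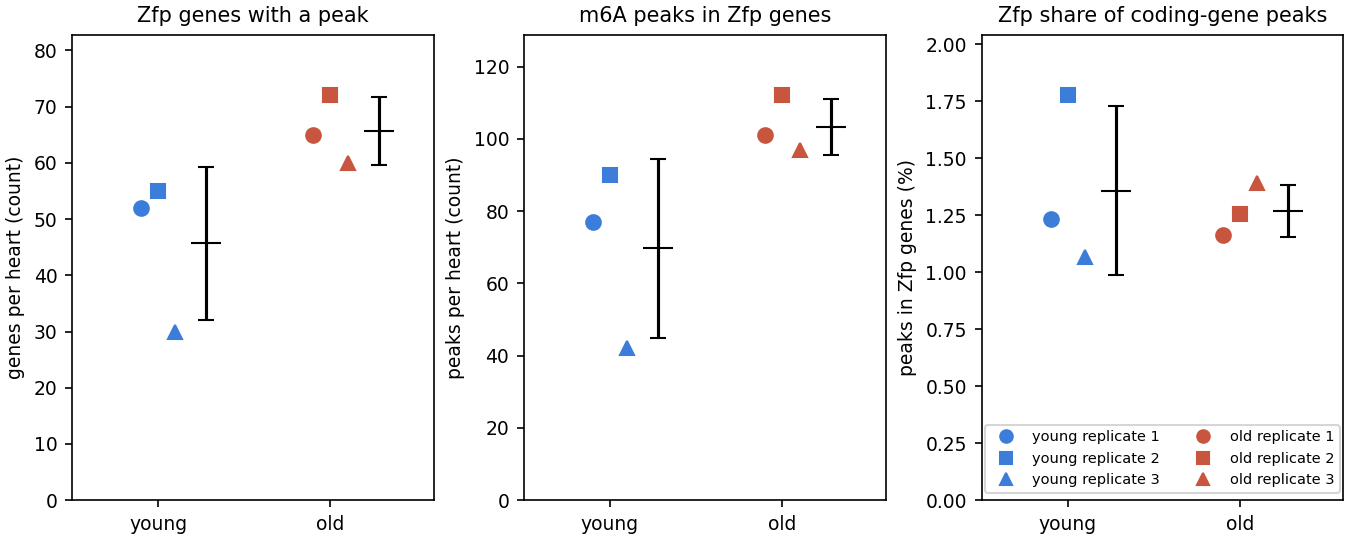
Zfp genes with a peak (left, count), peaks in Zfp genes (middle, count) and their share of the peaks of protein-coding genes (right, %) in each young and aged (old) heart, with the mean and SD of the 3 hearts of an age in black. Counts of the aged hearts, 60 to 72 genes, lie above the young ones, 30 to 55, while the shares overlap.

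The place of the peaks did not separate the ages. The share in a long last coding exon was 32.7% ± 6.53 in young and 33.8% ± 1.77 in aged hearts, a difference of 1.18 points (exact permutation p = 0.9). The 3′UTR share was 16.5% ± 7.31 in young and 18.3% ± 3.34 in aged hearts, a difference of 1.79 points (exact permutation p = 0.7). Both sets of values overlapped between the ages.

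By the number of hearts, 33 of the 112 genes had a peak in 1 heart, 25 in 2, 14 in 3, 10 in 4, 11 in 5 and 19 in 6. A peak in 1 heart alone was found in 29.5% of the Zfp genes against 23.2% of all coding genes with a peak, and a peak in all 6 hearts in 17.0% against 24.0%. At the level of regions, 110 of 225 (48.9%) were called in 1 heart and 21 (9.33%) in all 6. For all 15699 regions these shares were 42.9% and 10.6%. Both ages had a peak in 66 of the genes. The aged hearts alone had one in 35 (31.2%, against 26.5% of all coding genes with a peak) and the young hearts alone in 11 (9.82%, against 8.14%).

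Of the 225 regions, 2 (0.889%) were called in the 3 aged hearts and in none of the young, against a background of 2.68% over all regions. No region was called in the 3 young hearts and in none of the aged (background 0.0446%). With at least 2 hearts of one age against none of the other, 19 regions were called in the aged hearts (8.44%, background 11.7%) and 3 in the young hearts (1.33%, background 1.11%). The shares of Zfp regions that separated the ages were thus at or below those of all regions, apart from the 3 in the young hearts, whose share was close to the background. Those 3 lay in Zfp146, Zfp623 and Zfp955a and were named after their values had been seen. The Zfp955a region matched a transcript of another gene over 100% of its length.

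**Figure D4:**
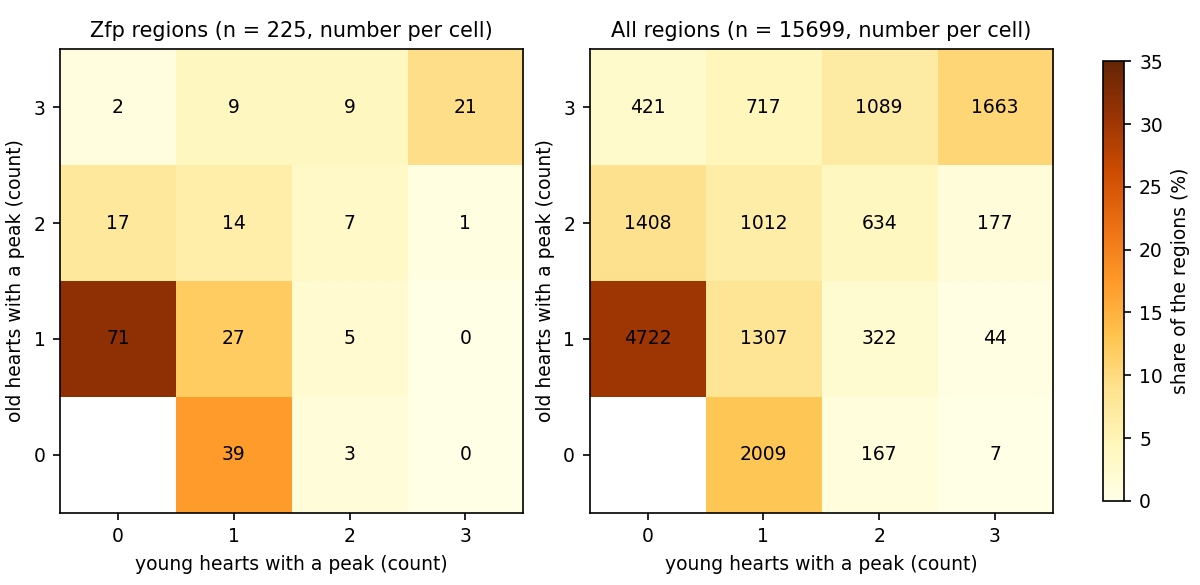
Number of young hearts (x axis) and aged (old) hearts (y axis) with a peak, for the 225 Zfp regions (left) and all 15699 regions (right), with the number of regions printed in each cell and their share in colour. The cell of 1 aged and no young heart is the fullest in both panels, with 71 and 4722 regions.

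The region of Zfp628, a gene known for its part in male germ cells, lay at chr7:4919017-4919286 in the last coding exon, which holds its whole coding sequence. The deposited p-values were 1.7e-07, 3.2e-18 and 1.5e-08 in the aged hearts, and no young heart had a peak. The second region, of Zfp706, spanned chr15:37001878-37004005 at and near its start codon, with deposited p-values of 1.6e-12, 4.8e-06 and 3.3e-06 in the aged hearts. Of its 478 exonic nt, 206 lie on the chosen transcript, and 204 of these matched a transcript of another gene, so reads there are of uncertain origin. With the 4114 best peaks of each heart, both regions were seen in 2 aged hearts.

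Counted by gene, 6 Zfp genes (5.36%, background 6.87%) had more peaks in each aged heart than in any young heart, and 0 had fewer (background 0.154%). These were Zfp142, Zfp366, Zfp397, Zfp628, Zfp646 and Zfp706, named for this count after their values had been seen. Zfp366, a nuclear corepressor first known from dendritic cells, had 3, 2 and 0 peaks in the young and 6, 4 and 4 in the aged hearts. Zfp142 had no peak in the young hearts and 1, 1 and 2 in the aged hearts. Of the 112 genes, 4 had a peak in each aged and in no young heart (3.57%, background 3.13%), and 0 the reverse (background 0.0768%). These 4 genes became members through the aged hearts alone.

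**Figure D5:**
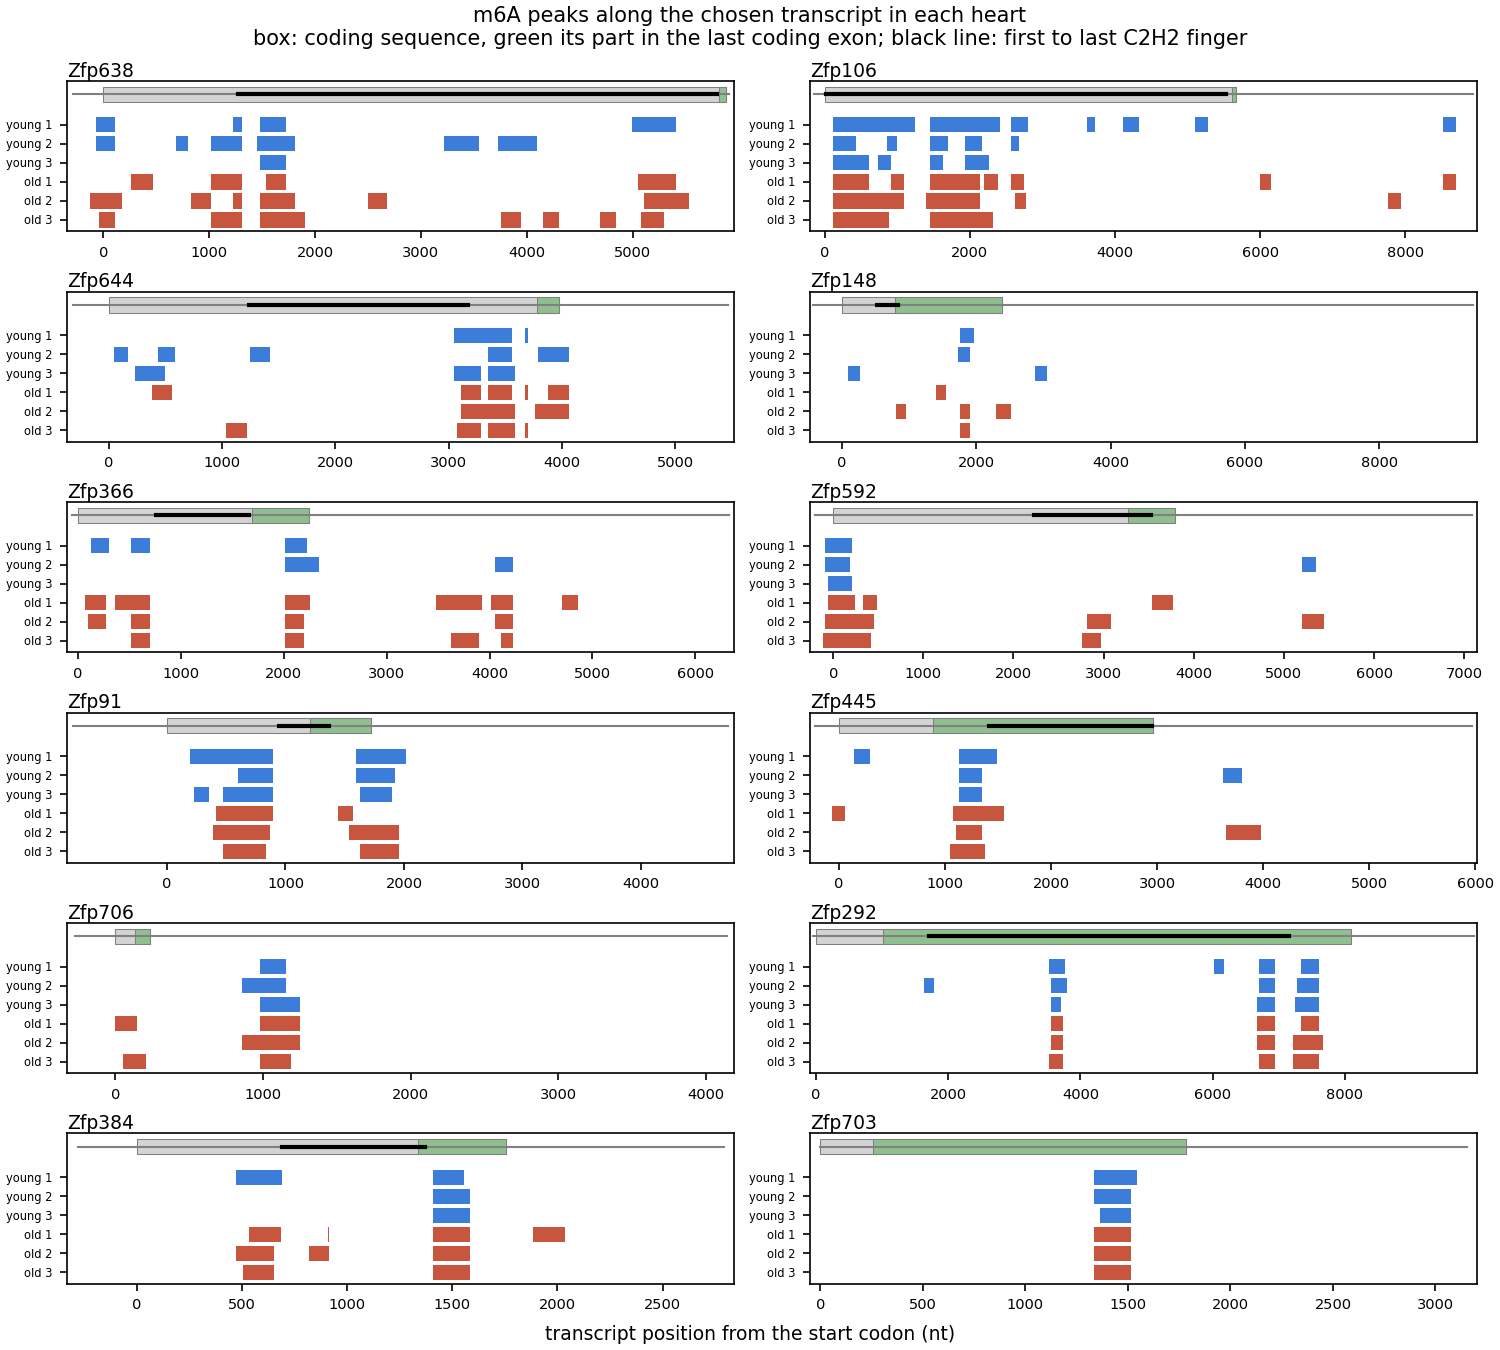
Peaks of 12 Zfp genes along the chosen transcript (x axis, nt from the start codon), with 1 track per young (blue) and aged (red, old) heart. The grey box is the coding sequence, green its part in the last coding exon, and the black line runs from the first to the last C2H2 finger. Peaks of the 6 hearts stack at few places in Zfp292, Zfp445 and Zfp703 and spread over many in Zfp638 and Zfp106.

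Among the RNA-binding members, Zfp106, which binds RNA and is needed to keep motor neurons and muscle intact, had the best ranked region of the family. It had 8, 5 and 4 peaks in the young and 7, 4 and 2 in the aged hearts, in 10 regions. The region that begins 117 nt after the start codon was called in all 6 hearts, with a deposited p-value of 0 in 5 hearts and 1e-232 in aged heart 2. The next one, from 1393 to 2412 nt after the start codon, held 4 GGAC and had deposited p-values of 1e-122, 1e-133 and 1.6e-92 in the young and 1e-158, 1e-277 and 1e-143 in the aged hearts. Both lie in inner coding exons, the longest of which has 2169 nt, and not in the last coding exon, whose coding part is 57 nt. A gene of the opposite strand, Gm26899, has exons at both places, and its part in the reads was not tested.

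Zfp638, an RNA-binding protein of the nucleus that takes part in splicing, had the most regions, 11. Its peaks numbered 4, 6 and 1 in the young and 4, 6 and 7 in the aged hearts. Its one region in all 6 hearts was the chr6:83942874-83944795 region over short coding exons, with deposited p-values of 2.8e-08, 2.5e-26 and 0.00076 in the young and 2.9e-07, 6.3e-34 and 1.6e-17 in the aged hearts. Zfp207, which helps chromosomes attach to the spindle in mitosis, had 5 peaks in 3 hearts.

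The CCCH proteins, which promote decay of AU-rich messengers, all had peaks, but none in all 6 hearts. Zfp36l1 had 1, 2 and 0 peaks in the young and 1, 2 and 2 in the aged hearts. Its last coding exon holds 960 of 1017 coding nt, and a region across the stop codon at chr12:80109547-80109787 was called in 4 hearts, with 3 GGAC and deposited p-values of 3.2e-11 in young heart 1 and 2.5e-10, 9.8e-07 and 3.6e-10 in the aged hearts. Zfp36 and Zfp36l2 had 2 peaks each, all in aged hearts. Of the 12 peaks of the 3 genes, 83.3% lay in the last coding exon and 8.33% in the 3′UTR.

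Of 7 KRAB genes known to silence imprinted genes or repeats, 3 had a peak. Zfp445, which keeps methylation at imprinted loci, had 2, 2 and 1 peaks in the young and 2, 2 and 1 in the aged hearts. Its region in all 6 hearts, chr9:122853321-122853831, lay in the last coding exon from 1044 to 1554 nt after the start codon and held 4 GGAC. The deposited p-values were 1e-108, 1.3e-17 and 1.3e-26 in the young and 4e-53, 7.9e-85 and 5e-84 in the aged hearts. The printed window lies before the first of its 12 fingers.

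Zfp809, which recognizes endogenous retroviruses and silences them, had 2, 2 and 1 peaks in the young and 2, 3 and 2 in the aged hearts. Its chr9:22238593-22238922 region was called in all 6 hearts, with deposited p-values of 0.011, 0.00052 and 9.8e-09 in the young and 2.6e-08, 3.2e-13 and 1.5e-07 in the aged hearts. A further region of the gene, called in 5 hearts, lay off the chosen transcript and in the 3′UTR of another coding transcript. Zfp568, a repressor of a placental Igf2 transcript, had 1 peak, in aged heart 2. Zfp57, Zfp708, Zfp819 and Zfp932 had none.

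The partners through which KRAB proteins act were set beside them. Of 14 genes, 10 had a peak and 4 had one in all 6 hearts, namely Atf7ip, Cbx5, Hdac2 and Atrx. Trim28 and Setdb1, the corepressor and its histone methyltransferase, had no peak in any heart. A long last coding exon held 2.06% of the placed peaks of this list.

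Of 14 large factors without a KRAB domain, 10 had a peak, and 59.2% of their 71 placed peaks lay in a long last coding exon. Zfp292, a very large factor first known from the pituitary, has 7083 of its 8097 coding nt in the last coding exon. It had 4, 4 and 3 peaks in the young and 3, 3 and 3 in the aged hearts, and 3 separate regions of this exon were called in all 6 hearts. The best ranked of them, chr4:34805392-34805842, had deposited p-values of 5e-62, 3.2e-63 and 2.1e-10 in the young and 2.5e-21, 1e-29 and 4e-66 in the aged hearts, and it held 0 GGAC.

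Zfp703, a transcriptional corepressor, had exactly 1 peak in each heart, from 1338 to 1546 nt after its start codon in a coding sequence of 1785 nt. Its deposited p-values were 1e-07, 2.5e-09 and 0.0021 in the young and 1e-17, 4e-17 and 2.3e-07 in the aged hearts. A gene of the opposite strand, Gm45371, has an exon there, and its part in the reads was not tested. Zfp91, known as an atypical ubiquitin ligase and transcription factor, had 2, 2 and 3 peaks in the young and 2, 2 and 2 in the aged hearts, in a region of inner coding exons and in a region across the stop codon. The peaks of the latter shared 0 nt over all 6 hearts, so it joins neighbouring peaks.

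Zfp148, a GC-box binding factor, had 1, 1 and 2 peaks in the young and 1, 3 and 1 in the aged hearts, and its most widely shared region was called in 4 hearts. Zfp281, a related factor known from stem cells, had a peak in 5 hearts. Zfp609, a partner of the cohesin loader, had a peak in 4, Zfp318 and Zfp608 in 3 each, Zfp462 in 2, and Zfp521, a regulator of progenitor cells, in 1. Zfp335, Zfp423, Zfp217 and Zfp750 had none.

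Further genes with a region in all 6 hearts were Zfp592, Zfp706, Zfp384, Zfp644 and Zfp950. Zfp592 had 1, 2 and 1 peaks in the young and 3, 3 and 2 in the aged hearts. Its shared region began 116 nt before the start codon and ran into an inner coding exon, the longest of which has 2220 nt. Zfp644, which guides an H3K9 methyltransferase complex, had 2, 6 and 3 peaks in the young and 6, 3 and 4 in the aged hearts, and its shared region lay from 3047 to 3587 nt after the start codon in a long inner coding exon. Zfp384, also called Nmp4 and known as a restraint on bone formation, had 2, 1 and 1 peaks in the young and 4, 3 and 2 in the aged hearts, the shared one in the last coding exon.

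Zfp706, a very small protein with 1 finger, differed from the large factors. Its region in all 6 hearts lay in the 3′UTR, at chr15:36999920-37000307, with deposited p-values of 1e-17, 4e-36 and 5e-24 in the young and 1e-23, 2.5e-54 and 1e-21 in the aged hearts. Its coding sequence is 231 nt and its 3′UTR 3909 nt. The shared region of Zfp950 lay off the chosen transcript, in the 3′UTR of another coding transcript.

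Zinc finger families under other symbols, given by their peaks over all hearts and without a test, varied in the layout of their peaks. In the Zbtb family, whose proteins join a BTB domain to fingers, 19 of 41 genes had a peak, 27.9% of the placed peaks lay in a long last coding exon and 48.9% in the 3′UTR. In the Klf family 10 of 17 genes had a peak, none of the placed peaks lay in a long last coding exon and 59.8% lay in the 3′UTR. In the SCAN domain families the 3′UTR held 68.8% of 16 placed peaks in Zscan (5 of 19 genes with a peak) and 50% of 12 in Zkscan (3 of 11), where 18.8% and 8.33% lay in a long last coding exon. In the Zfhx family of large homeodomain factors 2 of 3 genes had a peak, 31.6% of 19 placed peaks lay in a long last coding exon and 21.1% in the 3′UTR. In the Zfpm family of GATA cofactors both genes had a peak, and 100% of the 11 placed peaks lay in a long last coding exon and 0% in the 3′UTR. The corresponding shares of the Zfp genes were 33.6% and 17.9%.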

How the data were processed

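Per the labels and the study's methods, reads were aligned by the authors with Hisat2 (v2.1.0) to the GRCm38 genome in its strand setting RF, and exomePeak (v2.13.2) called peaks in each immunoprecipitate against its input (fragment length 200, p-values up to 0.05, no limit on the false discovery rate). The submitters' processing notes also name cutadapt 2.5 and HOMER 4.10.4. The annotation behind the calling is not given in the sources used here. A deposited list holds the place, exons and gene of each peak and its p-value, the one measurement, listed as 0 for 503 peaks. Deposited p-values served to order and limit the peaks of a list and never to compare hearts. Reads were not counted here, so depth is unknown, and longer lists may come from deeper libraries.

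Lists were assigned to samples by the library name in the labels. Members were the protein-coding genes of GENCODE M21 whose symbol is Zfp followed by a digit, with at least 1 peak under their identifier. The members, gene lists and tests were chosen with earlier results of these data known. A peak was placed by its middle on the coding transcript with the longest coding sequence. Fingers, linkers and the KRAB pattern were searched in the translation of that sequence from the GRCm38 genome, since no protein table was used here. Near-identical stretches were found with blastn 2.17.0 against all GENCODE M21 transcripts of other genes (95% over 100 nt), genes annotated over the same locus included.

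The ages were compared by permuting the 6 hearts over all 20 assignments (two-sided exact permutation test), and Zfp genes with other genes by exact sign flips within hearts, with Benjamini-Hochberg adjustment over 14 tests. The sign flips measure the spread between hearts and not that between genes, while the hearts share genes and sites and few genes hold many of the peaks. The genes named are up to 10 with a region in all 6 hearts whose weakest peak ranks best, those with a region in the 3 hearts of one age alone, the 5 with the most regions and the members of 4 gene lists. Alternatives were a stricter p-value of 1e-05, equal numbers of best peaks, each heart left out, any overlap, long exons from 1000 nt, no peaks within 100 nt of the stop codon, another transcript, 50% shared length to join peaks, 2 hearts against 0, DRACH, the last 50% of the coding sequence, no CCCH genes and a replicate block. Both sides limited to genes with a long last coding exon, finger motifs alone, the array within the last coding exon and the rank comparison with its alternatives were added after seeing the data. On simulated data, region calling recovered 100% of the planted regions. Each was planted in all 3 hearts of its age, in none of the other age and apart from other regions. The setting fixed this outcome in advance, so it checks the code and not how well real regions are found. The software was Python 3.11.15 with numpy 2.4.6, pandas 2.3.3, pysam 0.24.0 and matplotlib 3.10.9, beside samtools 1.23.1.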

Additional observations from a re-analysis of the deposited data

How the results depend on the processing

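Depth is unknown, members share hearts, and 3 hearts an age cannot pass a threshold of 0.05. No difference between the ages was called under any alternative run, and several turned in direction. With the same number of best peaks the difference in Zfp genes was -2.33 and in Zfp peaks -6.67, and with p-values of 1e-05 or less that in the share of peaks was 0.0536 points and that in Zfp peaks 21.3. The aged minus young difference in the long last coding exon was -1.73 points with any overlap, -2.35 with long exons from 1000 nt and -1.05 without the CCCH genes. Leaving out 1 heart gave -1.40 to 4.85 points for it (negative without young heart 3), -1.44 to 5.75 for the 3′UTR (negative without young heart 1, and -0.0251 without aged heart 2), -0.236 to 0.119 for the share of peaks (positive without young heart 2), 12.2 to 24.7 genes and 19.8 to 43.8 peaks (both lowest without young heart 3). The causes were not tested.

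Against other genes with a long last coding exon, the 3′UTR difference was 2.94 points with long exons from 1000 nt and 0.405 on the transcript with the longest exons, against -1.40 with p-values of 1e-05 or less and -1.25 with the same number of best peaks. The last-exon difference was 6.73 with both sides limited and -32.8 with long exons from 1000 nt (exact p = 0.03125). In the latter only the other genes were limited, so its sides are unlike. The 3′UTR difference from all other genes lost its exact p of 0.03125 with any overlap (-2.46), the same number of best peaks (-2.44) and the transcript with the longest exons (-0.636). The rank difference was 9.35 with p-values of 1e-05 or less (exact p = 0.0625), and the difference in DRACH was 1.79 per kb from other genes and 3.64 from the rest of the transcripts (exact p = 0.03125 each). The finger stretch within the last coding exon gave -22.2 points (exact p = 0.03125). With 1 heart left out the smallest p is 0.0625, which says nothing about stability. The differences then ranged from 22.8 to 25.6 points for the last exon against all other genes, -13.9 to -10.5 against those with a long one, -4.26 to -2.25 for the 3′UTR, 22.7 to 23.9 for single blocks, -15.2 to -12.7 for the finger stretch, 1.10 to 1.28 GGAC per kb against the rest of the transcripts and 8.60 to 10.9 for the rank.

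Regions in all 6 hearts numbered 10 with p-values of 1e-05 or less. Those of the aged hearts alone numbered 9 with that limit, 19 with 2 hearts against 0 (8.44%, background 11.7%) and 0 with the same number of best peaks. Leaving out 1 heart gave 2 to 10 for the aged and 0 to 2 for the young hearts alone. The latter numbered 3 with 2 hearts against 0 (1.33%, background 1.11%). For the other settings of this paragraph the share over all regions is not given here, so their counts cannot be set against a background.

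The correlations of same-numbered young and aged hearts were -0.00792, 0.0871 and 0.0603 over 8968 regions. Those of hearts with different numbers ranged from -0.0916 to 0.0302, below 0.0871 and 0.0603. Whether replicate numbers pair the hearts was not tested and is not settled by these small values. With the replicate number as a block, the difference in Zfp genes was 20 (exact p = 0.25, the smallest that 3 pairs allow), and no call changed.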
